A study of Mus musculus with 2 samples.

Results

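The 10 genes described here, Atg101, Nrbf2, Ambra1, Wipi1, Wipi2, Wdr45b, Wdr45, Vmp1, Tmem41b and Stx17, encode proteins of the autophagosome pathway. These proteins start, build or close the autophagosome, or act in its fusion with the lysosome. The genes were chosen by symbol among the whole-number rows of the deposited gene table, and all 10 were found there, out of 34259 such rows. Another 31 rows, all of autophagy genes, stand on a different scale at the top of that table and were not used for ratios. Bulk RNA was sequenced from 4T1 tumours, grown from a metastatic mouse mammary carcinoma line. The treated tumour (batch 1) was taken after 3 injections of a degrader of an autophagy-related protein, whose target the labels do not name, and the control tumour (batch 2) is labelled only as control. Each group had 1 library, the treated one with 3824323 counts and the control one with 2252214. Batch cannot be told apart from treatment. Every comparison below is between 2 libraries, has no replicate check and carries no p-value. Mouse strain, age, dose and the number of animals behind a tumour sample were not given in these sources.

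Autophagy wraps cytoplasm in a double membrane, the autophagosome, which then fuses with the lysosome. The ULK1 kinase complex receives the starvation signal, and the class III PI3-kinase complex then marks a patch of endoplasmic reticulum (ER) with the lipid PI3P. PI3P-binding WIPI proteins bring the machinery that attaches ATG8 proteins to the growing membrane, lipid scramblases let lipids flow into it, and SNARE proteins drive its fusion with the lysosome. Much of this machinery is controlled after transcription, and mRNA levels do not measure autophagic flux.

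None of the 10 genes differed by 2-fold between the libraries. Wipi1 was the one with a higher level in the treated tumour beyond counting error, at 1.66-fold, and Vmp1 the one with a lower level beyond counting error, at 0.909 of the control. For the other 8 the counting interval of the ratio held 1. Levels are in CPM, the count scaled to a common library size. Among the 8865 genes that averaged 10 CPM or more, 4.23% passed 2-fold on the higher and 2.50% on the lower side in the treated library. The counting interval lay above 1 for 22.0% of these genes and below 1 for 18.9%, so 1 of 10 in each direction is no more than the share among all genes. The median log2 ratio of the 10 genes was -0.02, with 5 above and 5 below 0, and that of all genes tested was 0.03, with quartiles at -0.26 and 0.34. Log2 ratios are treated over control after 1 CPM was added to each library. Ratios are of CPM without that addition, and each has an exact 95% interval that covers counting error only and not the variation between tumours.

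**Figure D1:**
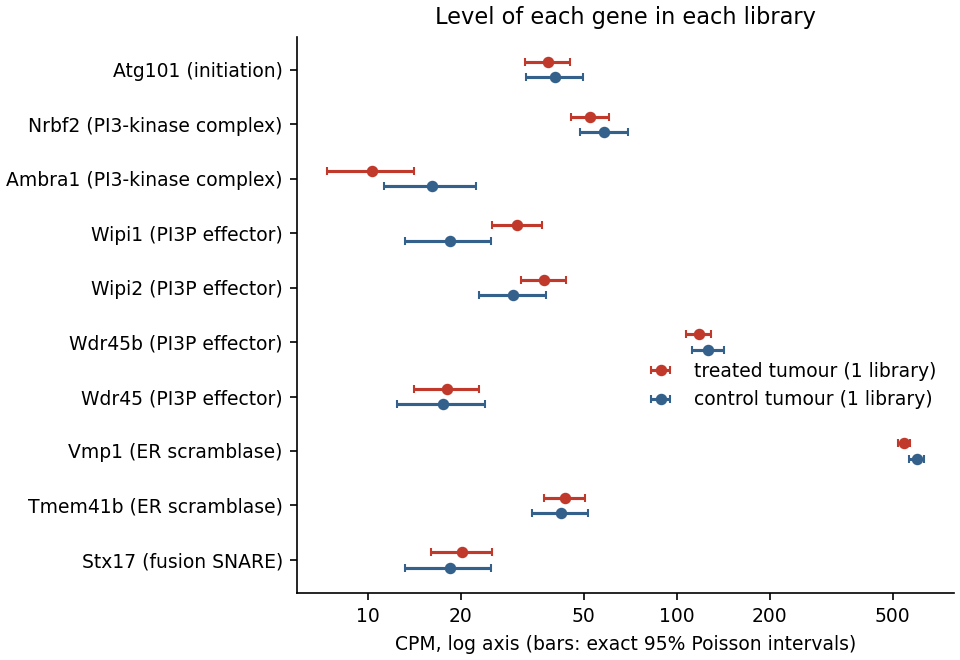
CPM of each gene in the treated and the control library on a log axis, with exact 95% Poisson intervals. The intervals of the 2 libraries part for Wipi1, 25.3 to 36.6 against 13.2 to 25.0 CPM, and overlap for the other 9 genes.

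ATG101 is the subunit that stabilises ATG13 and so the ULK1 kinase complex. Atg101 (ENSMUSG00000037204, chr15:101284272-101290945, plus strand, mm10) had 148 treated and 90 control counts, or 38.3 CPM (32.4 to 45.0) and 40.4 CPM (32.5 to 49.6). The intervals overlapped, and the ratio was 0.948 (0.725 to 1.25). Its direct partners Ulk1, Ulk2, Atg13 and Rb1cc1 are among the rows on the other scale, so the complex could be followed here through this subunit alone. Of 14 genes listed for the complex and its upstream kinases, 7 on the count scale reached 10 CPM. Prkab1, a regulatory subunit of the energy sensor AMPK, had 135 against 45 counts, a ratio of 1.73 (1.23 to 2.48), whereas Prkaa1, a catalytic subunit of AMPK, had 103 against 92 counts, a ratio of 0.646 (0.483 to 0.865). Akt1s1, an inhibitory subunit of mTORC1, the kinase that restrains ULK1, had a ratio of 1.46 (1.06 to 2.02). The AMPK subunits thus lay on opposite sides of 1, and the list median was 0.22 on the log2 scale.

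NRBF2 and AMBRA1 act on the class III PI3-kinase complex, NRBF2 as a regulatory subunit of its ATG14-containing form and AMBRA1 as a scaffold that binds Beclin 1. Nrbf2 (ENSMUSG00000075000, chr10:67266689-67285305, minus strand) had 203 treated and 130 control counts, or 52.5 CPM (45.5 to 60.3) and 58.3 CPM (48.7 to 69.3). Its ratio of 0.900 (0.719 to 1.13) included 1. Ambra1 (ENSMUSG00000040506, chr2:91730134-91918849, plus strand) had 40 treated and 36 control counts, or 10.3 CPM (7.39 to 14.1) and 16.2 CPM (11.3 to 22.4). It had the lowest ratio of the 10 genes, 0.641, but also the fewest counts, and its interval of 0.398 to 1.03 included 1. At this depth a level of Ambra1 as low as 0.398 of the control, or an equal level, could not be told apart. At least 1.5-fold lower values were seen for 9.02% of all genes tested and for 11.4% of those with a mean between 10 and 20 CPM, the range Ambra1 lies in. Of 11 genes listed for the PI3-kinase complex and its regulators, 5 are on the other scale, 4 reached 10 CPM and none of these had an interval that left out 1. Sh3glb1, which binds the complex through UVRAG and was the most abundant of them, had 982 against 600 counts, a ratio of 0.944 (0.852 to 1.05). Nrbf2 counts per Ambra1 count were 3.61 in the control and 5.08 in the treated library, and the ratio of these, 1.40, had an interval of 0.823 to 2.39.

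AMBRA1 also serves as a substrate receptor of the CUL4-DDB1 ubiquitin ligase and sends D-type cyclins to degradation, a role at the level of protein. Of 9 genes listed for this ligase and its cyclin substrates, all reached 10 CPM, none was 2-fold different and 3 had an interval below 1, which 18.9% of all genes tested had. Cul4b and Cul4a, the alternative cullin scaffolds, had ratios of 0.707 (0.543 to 0.923) and 0.837 (0.704 to 0.996). Ccnd2, cyclin D2, had 80 against 71 counts, a ratio of 0.650 (0.466 to 0.907). Ccnd1, cyclin D1 and the most abundant gene of this list, had 2881 against 1644 counts, a ratio of 1.01 (0.951 to 1.07). Ddb1, the adaptor of the ligase, had a ratio of 1.03 (0.932 to 1.14). The median log2 ratio of the list was 0.01.

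The WIPI proteins are beta-propellers that read PI3P on the forming membrane. WIPI2 recruits ATG16L1 and with it ATG8 lipidation. WDR45B and WDR45 are the more distant members of the family, and WDR45 binds the lipid transfer protein ATG2. Of the 4 genes, Wipi1 differed most between the libraries. Wipi1 (ENSMUSG00000041895, chr11:109573331-109611967, minus strand) had 118 treated and 41 control counts, or 30.5 CPM (25.3 to 36.6) and 18.4 CPM (13.2 to 25.0). These intervals did not overlap, and the ratio was 1.66 (1.15 to 2.43). It was the single member at least 1.5-fold higher on the log2 scale, against 12.8% of all genes tested and 13.9% of those between 20 and 50 CPM. Its log2 ratio of 0.70 was exceeded by 9.07% of all genes tested.

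Wipi2 (ENSMUSG00000029578, chr5:142627698-142670588, plus strand) had 144 treated and 66 control counts, or 37.3 CPM (31.4 to 43.9) and 29.6 CPM (22.9 to 37.7). Its ratio of 1.26 was second in order, with an interval of 0.934 to 1.71 that included 1. Wdr45b (ENSMUSG00000025173, chr11:121327224-121354445, minus strand) had 456 treated and 281 control counts, or 118 CPM (107 to 129) and 126 CPM (112 to 142), a ratio of 0.936 (0.805 to 1.09). Wdr45 (ENSMUSG00000039382, chrX:7714333-7728206, plus strand) had 70 treated and 39 control counts, or 18.1 CPM (14.1 to 22.9) and 17.5 CPM (12.4 to 23.9), a ratio of 1.03 (0.690 to 1.57). The levels of Wipi2, Wdr45b and Wdr45 all overlapped between the libraries. A predicted gene on the same strand, Gm45208, shares 818 bases or 24.7% of the Wdr45 exons; it is listed at 0 in both libraries, and the sources do not say how reads in the shared part were assigned.

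Because shares within a library do not depend on how the libraries are scaled, the family was also compared by its makeup. Wipi1 took 15.0% (12.6% to 17.7%) of the 788 family counts in the treated and 9.60% (6.98% to 12.8%) of the 427 in the control library. Wdr45b took 57.9% (54.3% to 61.3%) and 65.8% (61.1% to 70.3%). For both genes the intervals of the 2 libraries overlapped narrowly. Wipi1 counts per Wdr45b count were 0.259 (treated) and 0.146 (control), and the ratio of these was 1.77 (1.19 to 2.68). This was the one of 8 pairs of members compared, 6 of them within this family, whose interval left out 1. Between Wipi1 and Wipi2 the ratio of ratios was 1.32 (0.814 to 2.15), so the higher ratio of Wipi1 was not separated from that of Wipi2 by counting error. Summed over the 4 genes, the level was 204 CPM (treated) and 192 CPM (control), a ratio of 1.06 (0.945 to 1.20).

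**Figure D2:**
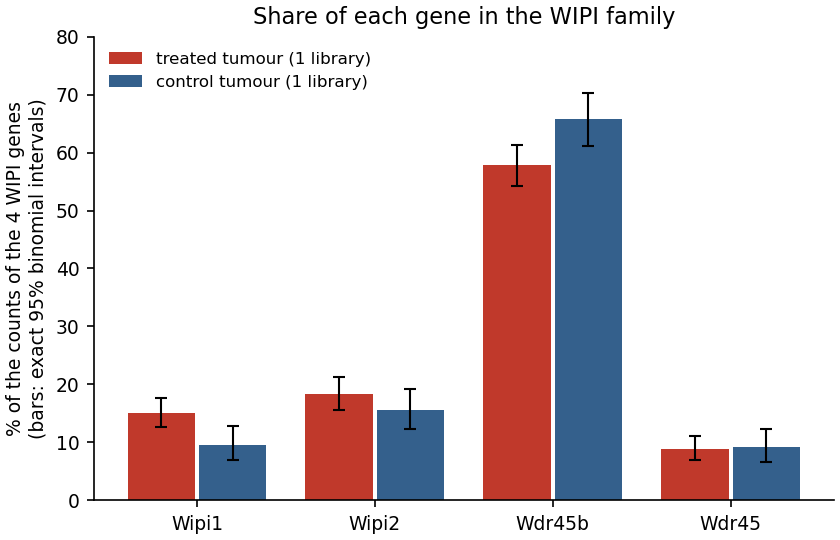
Share of each WIPI gene in the summed counts of the 4 genes, in percent, for the treated and the control library, with exact 95% binomial intervals. Wipi1 took 15.0% of the treated and 9.60% of the control counts, and Wdr45b 57.9% and 65.8%.

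The start-site window of Wipi1 is shown because Wipi1 was the gene with the higher level, and that of Nrbf2 because it was the single member whose window held the E-box core CACGTG, the centre of the element bound by TFEB, a transcription factor of lysosomal and autophagy genes. RefSeq windows (GRCm38.p6) run from 250 bases before to 50 bases after a start site and were found for 9 of the 10 genes. Each window belongs to a RefSeq start site, which need not be the outer end of the gene, and Vmp1 had several. The windows of Wipi1, Wipi2, Tmem41b and Wdr45 lie wholly within the gene spans given here, so other start sites of these genes were not covered. Capitals mark CACGTG and the GC box GGGCGG, to which SP factors bind, on either strand.
Wipi1, chr11:109611340-109611639, minus strand: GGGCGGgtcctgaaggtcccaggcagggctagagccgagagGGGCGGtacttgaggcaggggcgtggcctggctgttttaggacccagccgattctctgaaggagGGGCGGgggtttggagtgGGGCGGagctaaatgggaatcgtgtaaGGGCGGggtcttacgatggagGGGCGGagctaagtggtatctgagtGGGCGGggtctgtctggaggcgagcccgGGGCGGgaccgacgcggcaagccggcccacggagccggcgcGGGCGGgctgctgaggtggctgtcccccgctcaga
Nrbf2, chr10:67285232-67285531, minus strand: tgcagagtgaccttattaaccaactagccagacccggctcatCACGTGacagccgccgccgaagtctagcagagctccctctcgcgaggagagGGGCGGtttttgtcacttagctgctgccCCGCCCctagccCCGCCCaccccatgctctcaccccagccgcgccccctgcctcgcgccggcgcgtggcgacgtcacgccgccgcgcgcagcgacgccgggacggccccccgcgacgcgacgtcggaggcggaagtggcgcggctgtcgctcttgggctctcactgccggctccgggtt

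The Wipi1 window held 9 GC boxes and no CACGTG. At least 9 GC boxes were present in 0.125% of the 32851 mouse windows, and at least 1 in 35.7%. The Wipi1 window was 69.0% G and C, and all windows had a median of 52.7% and an upper quartile of 61.7%. Its GC boxes were not compared with those of windows equally rich in G and C. Wipi2, Tmem41b, Stx17 and Nrbf2 held 2, 4, 3 and 3 GC boxes, and Atg101, Ambra1, Vmp1 and Wdr45 none. CACGTG was present in 7.15% of all windows. The windows of the 9 genes did not hold the forkhead site GTAAACA (3.65% of all windows) or the C/EBP-ATF site TTGCATCA (0.895%). These matches describe letters in a window, and no binding was measured.

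Other readers and erasers of PI3P gave the context for the WIPI genes. Of 11 listed genes of this step, 9 reached 10 CPM and 2 had an interval above 1, Wipi1 and Mtmr2. Among all genes tested 22.0% had an interval above 1, so this count is near the background. Mtmr2, a phosphatase that removes the phosphate the PI3-kinase adds, had 555 against 231 counts, a ratio of 1.39 (1.19 to 1.62). Wdfy3, which links cargo to the autophagy machinery at PI3P membranes, had a ratio of 0.951 (0.711 to 1.28). The list median was 0.13 on the log2 scale.

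VMP1 and TMEM41B are membrane proteins of the ER that scramble phospholipids between the leaflets and are needed for the membrane to grow and close. Vmp1 (ENSMUSG00000018171, chr11:86583865-86683836, minus strand) had 2102 treated and 1333 control counts, or 544 CPM (521 to 568) and 598 CPM (566 to 631). The levels overlapped at their edges, and the ratio of 0.909 (0.849 to 0.975) lay below 1. An interval below 1 was seen for 34.8% of the 1685 genes that averaged 100 CPM or more, where counting error is small. Tmem41b (ENSMUSG00000047554, chr7:109972187-109986929, minus strand) had 168 treated and 94 control counts, or 43.5 CPM (37.1 to 50.6) and 42.2 CPM (34.1 to 51.6). Its ratio was 1.03 (0.796 to 1.34). Tmem41b counts per Vmp1 count were 0.0799 in the treated library and 0.0705 in the control, and the ratio of these was 1.13 (0.867 to 1.49).

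Vmp1 carries a second product. The hairpin of miR-21a, a microRNA abundant in many tumours, lies at chr11:86584067-86584158 on the same strand, inside the last of 13 exon blocks of Vmp1, and covers 92 bases or 2.38% of the Vmp1 exons. Its mature forms, from RefSeq (GRCm38.p6), are shown with the seed, bases 2 to 8, in capitals.
mmu-miR-21a-5p: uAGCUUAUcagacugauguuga
mmu-miR-21a-3p: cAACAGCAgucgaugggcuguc
The Vmp1 counts can therefore include reads from the primary transcript of miR-21a that crosses this exon, and the mature microRNA was not measured. The table holds no row for the hairpin.

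Among 9 genes listed for ATG9 vesicles, lipid transfer and scramblases, 3 (Atg9a, Atg2a and Atg2b) are on the other scale and 6 reached 10 CPM. There was 1 interval above and 1 below 1, against 22.0% above and 18.9% below among all genes tested. Tmem41a, a paralog of Tmem41b, had 52 against 15 counts, a ratio of 2.00 (1.11 to 3.82) that fell short of the 2-fold rule after 1 CPM was added. Atp2a2, the ER calcium pump with which VMP1 interacts, had 382 against 206 counts, a ratio of 1.07 (0.900 to 1.27).

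Syntaxin 17 is the SNARE of the closed autophagosome and pairs with SNAP29 and the lysosomal VAMP8. Stx17 (ENSMUSG00000061455, chr4:48124915-48186507, plus strand) had 78 treated and 41 control counts, or 20.2 CPM (16.0 to 25.2) and 18.4 CPM (13.2 to 25.0). The levels overlapped, and the ratio was 1.10 (0.742 to 1.64). Snap29 had 81 against 45 counts, a ratio of 1.04 (0.712 to 1.53), and Vamp8 705 against 429, a ratio of 0.948 (0.839 to 1.07). For all 3 parts of this SNARE complex the interval included 1.

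The alternative fusion SNAREs gave ratios on either side of 1. Ykt6, which acts in fusion alongside syntaxin 17, had 214 against 91 counts, a ratio of 1.36 (1.06 to 1.75). Its partner Stx7 had 394 against 359 counts, a ratio of 0.633 (0.547 to 0.732). Of 20 listed fusion genes, 16 reached 10 CPM, 5 had an interval above 1 (22.0% of all genes tested did) and 1, Stx7, below it. The other 4 above 1 were Grn, the lysosomal protein progranulin, at 1.59 (1.40 to 1.81), Rab7, the GTPase of late endosomes, at 1.28 (1.10 to 1.50), Vps11, a subunit of the HOPS tether, at 1.86 (1.23 to 2.88), and Plekhm1, an adaptor between Rab7 and HOPS, at 1.80 (1.01 to 3.39). The HOPS subunits Vps16, Vps33a, Vps39 and Vps41 had ratios of 0.829, 1.19, 1.10 and 1.04, each with an interval that included 1. The median log2 ratio of the fusion list was 0.13.

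**Figure D3:**
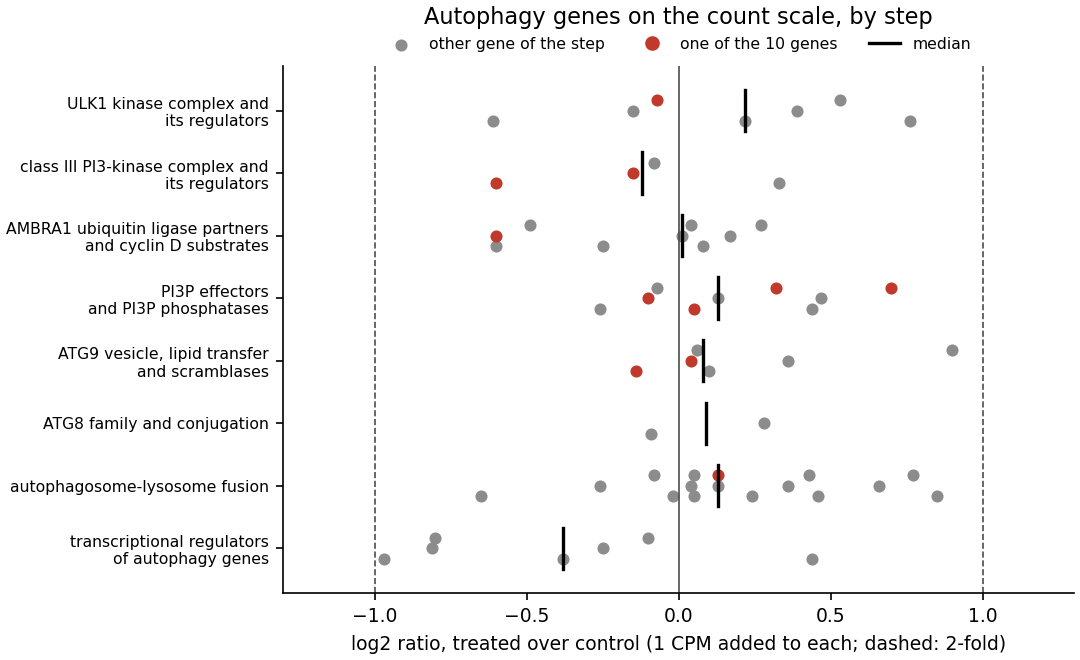
Log2 ratio, treated over control, of each autophagy gene on the count scale with a mean of at least 10 CPM, by step, with the 10 genes in red and each list's median as a bar. No gene passed 2-fold in either direction, and the lowest list median, -0.38, was that of the transcriptional regulators.

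Over all 8 step lists, 49 genes other than the 10 were on the count scale with a mean of at least 10 CPM. None was 2-fold higher or lower, and their median log2 ratio was 0.06. In each direction 9 of them, or 18.4%, had an interval that left out 1, against 22.0% above and 18.9% below among all genes tested. The lowest list was that of transcriptional regulators, with a median of -0.38 over 7 genes and 4 intervals below 1, on few genes and beside the same 18.9%. Foxo3, a forkhead activator of autophagy genes, had 44 against 52 counts, a ratio of 0.488 (0.319 to 0.743) that fell short of the rule after 1 CPM was added. Flcn, which helps hold TFEB and TFE3 in the cytoplasm through mTORC1, had 34 against 36 counts, a ratio of 0.545 (0.331 to 0.895). Its binding partner Fnip1 had a ratio of 0.763 (0.611 to 0.956). Zkscan3, a zinc finger protein described as a repressor of autophagy genes, had 68 against 70 counts, a ratio of 0.560 (0.395 to 0.793). The activator and the repressor thus had ratios on the same side. Tfeb itself had 19 against 11 counts and did not reach the minimum. Of 17 listed genes of the ATG8 conjugation system, 14 are on the other scale, and Gabarap and Atg16l2, the 2 that could be used, had intervals that included 1.

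The order of the 10 ratios ran from Wipi1 through Wipi2, Stx17, Wdr45, Tmem41b, Atg101, Wdr45b, Vmp1 and Nrbf2 to Ambra1, and every gene's interval overlapped that of the next. The interval of Wipi1 overlapped those of 5 of the other 9 genes. For 8 of the 10 genes the interval lay within 2-fold of 1 in both directions, the exceptions being Wipi1 and Ambra1. For 5 of them, Atg101, Nrbf2, Wdr45b, Vmp1 and Tmem41b, it lay within 1.5-fold. The width of an interval depends on the counts of the gene. The share of all genes tested that lies within these bounds was not computed, so these counts have no background to be read against. Summed over all 10 genes the treated level was 913 CPM and the control level 965 CPM, a ratio of 0.945 (0.896 to 0.998). The upper bound lies very close to 1, and the sum was computed under the main scaling only. This sum is mostly Vmp1, which held 59.6% (58.0% to 61.2%) of the treated and 62.0% (59.9% to 64.0%) of the control counts of the 10 genes. Without Vmp1 the levels were 369 and 367 CPM, a ratio of 1.00 (0.921 to 1.10).

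**Figure D4:**
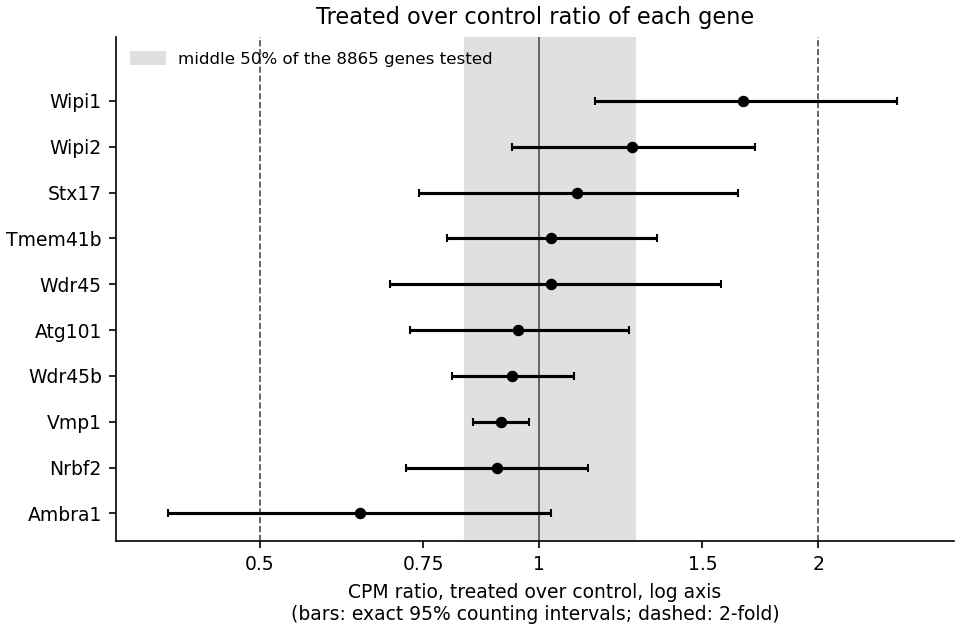
CPM ratio, treated over control, of each gene on a log axis with exact 95% counting intervals, and the range between the quartiles of the 8865 genes tested, 0.831 to 1.27, as a grey band. Wipi1, at 1.66, and Ambra1, at 0.641, lie outside the band.

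Levels were compared between the genes as CPM per kilobase of annotated exon. This scale holds only if reads cover whole transcripts, which the sources do not state. Vmp1 was highest, at 141 treated and 155 control CPM per kilobase, and its interval did not overlap that of the next gene. Nrbf2, Wdr45b and Atg101 followed, with treated values of 28.2, 25.9 and 24.0 and control values of 31.4, 27.6 and 25.3, and the intervals of neighbours overlapped. Tmem41b had 7.40 and 7.18, Wdr45 5.47 and 5.29, and Stx17 3.40 and 3.10. Wipi1, at 6.92 treated and 4.17 control CPM per kilobase, stood above Wdr45 in the treated and below it in the control library, and its interval overlapped that of Wdr45 in both. Wipi2 had 3.53 and 2.81. Ambra1 was lowest in both libraries, at 1.69 and 2.64, and in the control library its interval overlapped that of Wipi2. The scramblases of the same step thus stood far apart in level, Vmp1 above Tmem41b in both libraries.

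**Figure D5:**
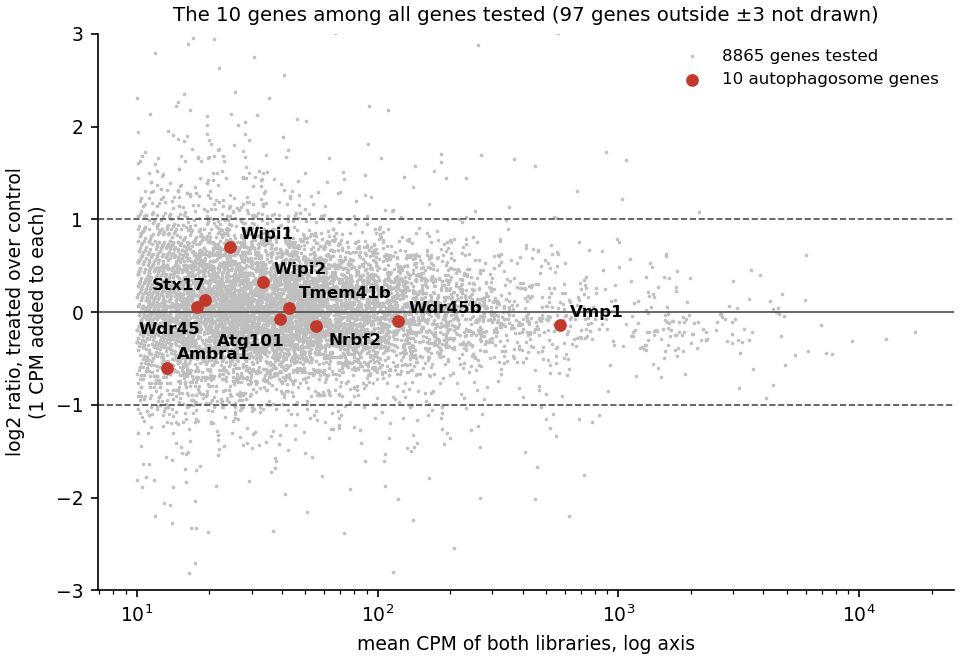
Log2 ratio against mean CPM (log axis) for the 8865 genes tested, with the 10 genes in red; 97 genes outside ±3 are not drawn. All 10 lie inside the 2-fold lines, from -0.60 for Ambra1 to 0.70 for Wipi1.

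Marker genes of several cell types also differed in level between the tumours. In bulk RNA fewer cells of a type and less RNA per cell cannot be told apart. The 2-fold rule was applied to markers that averaged 10 CPM or more. The 4T1 epithelial markers Krt8, Krt18, Epcam and Cdh1 summed to 4299 treated and 3750 control CPM, and none was 2-fold different. All 5 keratinocyte markers with a row, of 6 listed and among them Krt14 and Krtdap, were at least 2-fold higher in the treated library, with sums of 2006 against 152 CPM. Krt14 made up 998 and 123 CPM of these sums, and Krtdap had 1356 treated and only 5 control counts. All 5 neutrophil markers, among them S100a8 and S100a9, were at least 2-fold higher, summing to 2407 against 830 CPM. The erythroid markers summed to 518 against 162 CPM, with all 3 that reached 10 CPM at least 2-fold higher, and the skeletal muscle markers to 52.8 against 21.1 CPM, with both that reached it. Endothelial markers summed to 53.6 against 129 CPM, with 2 of 4 at least 2-fold lower. Adipocyte markers summed to 93.1 against 576 CPM, and both that reached 10 CPM, Fabp4 and Cfd, were at least 2-fold lower; Adipoq and Plin1, below the minimum, had 17 against 34 and 1 against 7 counts. Macrophage markers summed to 821 against 1020 CPM, with 1 of 5, Cd68, at least 2-fold higher. Lyz2, at 402 against 636 CPM, had a ratio below 1, at 0.632 (0.588 to 0.680), and Csf1r one above 1, at 1.64 (1.13 to 2.43). For Adgre1, at 0.743 (0.532 to 1.04), and C1qa, at 1.05 (0.959 to 1.15), the interval included 1. Fibroblast markers summed to 1510 against 1809 CPM, with 1 of the 4 that reached 10 CPM, Dcn, at least 2-fold higher, and Pdgfra, below the minimum, had 51 against 11 counts. T cell markers summed to 27.2 against 18.8 CPM; Cd3g alone reached 10 CPM and did not pass the rule, and Cd3e and Cd4 had 8 and 2 treated and 0 control counts. Their part in the ratios of Wipi1, Vmp1 and the other genes was not tested.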

How the data were processed

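RNA from 2 tumours was sequenced, 1 library per group from 1.5 µg of RNA each, per the labels. The deposited values are counts per gene, aligned to mm10 per the submitters' processing notes; aligner, counter, strand handling and molecular identifiers are not given in these sources. The deposited sheet has 34290 rows, of which 31 at its top (30 with a value that is not whole) are on another, unstated scale and were left out of totals and ratios. Another 7 value columns tied to no sample were not used. The plan assumed 1 unit per table.

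Scaling used the trimmed mean of M values (TMM), computed from its formula (30% of log ratios and 5% of abundances trimmed), with factors of 1.01 and 0.989. A treated count is worth 0.259 CPM and a control count 0.449 CPM. Ratio intervals are conditional binomial, levels Poisson and shares Clopper-Pearson, all exact at 95% and for counting error only. Genes needed a mean of 10 CPM, and a pseudocount of 1 CPM was added for log2 ratios and the 2-fold rule. Ratios of 2 members' ratios are conditional odds ratios. The scaling and the counting interval were tried on simulated Poisson counts. That simulation held no variation between tumours, so it says nothing about how far 2 tumours differ. Exons come from GENCODE M21 (GRCm38, the same assembly as mm10), promoter windows and microRNAs from RefSeq. Python 3.11.15, numpy 2.4.6, scipy 1.17.1 and pandas 2.3.3 were used.

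Members and lists were chosen with earlier results of these data known. All members were named; the rule allowed from each step list genes past the fold or interval rule, and otherwise the 2 most abundant, and from each marker list the 2 most abundant. Named outside it, after their values were seen, were Snap29, Vamp8, Ccnd1, Ddb1, Atp2a2, Tfeb, Wdfy3, Vps16, Vps33a, Vps39, Vps41, Epcam, Cdh1, Adipoq, Plin1, Dcn, Pdgfra, Cd68, Csf1r, Adgre1, Cd3e and Cd4. Alternatives were other scalings, pseudocounts, minimums and thresholds, the second sheet, and the off-scale rows kept as counts.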

Additional observations from a re-analysis of the deposited data

How the results depend on the processing

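The ratios of the 10 genes varied little with the scaling: over plain totals, the median of ratios, reduced totals (leaving out mitochondrially encoded, globin and ribosomal protein genes), the second sheet and the off-scale rows kept as counts, Wipi1 ranged from 1.63 to 1.69, Vmp1 from 0.895 to 0.929 and Ambra1 from 0.631 to 0.654. In each of these the interval of Wipi1 stayed above 1 and that of Vmp1 below 1. With plain totals the interval of Vmp1 was 0.867 to 0.995, so its upper bound came close to 1. Of 146 values under 11 alternatives, 133 kept their value within the counting interval, within 1.5 times for a count or within 0.1 for a log2 median. Many of these could hardly move, so the tally does not measure robustness. All 10 genes reach 10 CPM, so lower minimums leave them as they are, and their counts are the same in the second sheet. The ratio of library sizes ranged only from 1.70 with plain totals to 1.76 with reduced totals. With a 1.5-fold threshold 1 member was higher and 1 lower, and of the 49 other step genes 5 were higher and 6 lower. Among all genes tested 12.8% were higher and 9.02% lower at this threshold, so these counts are near the background. With a minimum of 50 CPM, 3 members were left, 0 of them with an interval above 1 (Wipi1 does not reach this minimum), and their median was -0.14. At this minimum 3 other step genes had an interval above and 3 below 1. Among all genes between 50 and 100 CPM, 24.7% had an interval above and 22.6% below 1. For those at 100 CPM or more the shares were 30.5% and 34.8%. Among the other step genes 1 was 2-fold lower with a pseudocount of 0.5 CPM, and 1 with the reduced totals. Keeping the off-scale rows as counts adds 27 listed genes whose unit is unknown; then 9 step genes were 2-fold lower, 34 had an interval below 1, and the median was -0.25. No paired analysis was possible because each group has 1 library. Depth limits Ambra1, Wipi1, Stx17 and Wdr45 most.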

Other observations

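The deposited second sheet differs from the full sheet in 3 values of genes found in both, all in the control library, named here after their values were seen. Krt79, a keratin of hair follicle and sebaceous duct cells, has 1 count in the full and 99 in the second sheet, Pof1b, an actin-binding protein of epithelia, 2 and 99, and Dsc3, a desmosomal cadherin of stratified epithelia, 0 and 89. The treated values of these genes, 215, 213 and 200, are equal in both sheets. The 10 autophagosome genes have the same values in both sheets.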
